A study of Mus musculus with 7 samples.

Results

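The genes described here are 10 that respond to glucocorticoid hormones, to fasting or to both: Nr3c1, Fkbp5, Tsc22d3, Zbtb16, Klf9, Sgk1, Mt1, Mt2, Angptl4 and Pdk4. They were represented by every probe set for which the platform annotation gave that gene as its single symbol, which came to 30 of 45037 probe sets that are not controls, and to 10 of the 18193 genes that the array names in this way. The lungs came from 3 mice with a Gata5 knockout (KO) and 4 wild-type mice (WT). Gata5 is a DNA-binding regulator of the GATA family. Left lungs were taken from all 7 mice at 8 weeks of age, and total RNA of each lung was hybridised to 1 Affymetrix whole-genome mouse array. The labels call the mice of a group biological replicates. They give no treatment, hormone level, feeding state or time of day, and neither the deleted exons nor the strain are given in the sources used here.

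Glucocorticoids, corticosterone in the mouse, are made by the adrenal cortex in a daily rhythm and on stress. They bind the glucocorticoid receptor, the product of Nr3c1, which is held ready for the hormone by Hsp90 and its co-chaperones. The hormone-bound receptor moves to the nucleus and binds response elements near its target genes, many of which feed back on the pathway or dampen inflammation. Fasting raises circulating glucocorticoids and free fatty acids, and genes of fat handling such as Angptl4 and Pdk4 are then induced through the glucocorticoid receptor, PPAR and FOXO factors. In the lung, glucocorticoids drive the late maturation of the airspaces and are the main anti-inflammatory drugs of airway disease.

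Levels are given on the log2 scale as deposited, so that a difference of 1 is a doubling, and each change is the mean of the KO arrays minus the mean of the WT arrays. A probe set passed when its limma p, adjusted by the Benjamini-Hochberg method over all 45037 probe sets, was under 0.05. Because each probe set has its own probes, levels of different probe sets were not read as the amount of one RNA against another. Where levels were ranked over probe sets, the rank describes signal. Differences between probe sets of a gene and summed levels of lists served to compare arrays. Median levels per array lay between 6.10 and 6.15. The targeted gene was dim on all arrays. Gata5 at 1450126_at stood at 4.98, 4.71 and 5.15 on KO arrays, against 5.32, 5.53, 5.85 and 5.47 on WT arrays (log2 change -0.60, adjusted p = 0.0336 from limma), and it no longer passed when KO replicate 1 or 2 or WT replicate 2, 3 or 4 was left out (adjusted p at most 0.0791). At 1450125_at its log2 change was -0.26 (adjusted p = 0.0993 from limma). Since the deleted exons are unknown, these probe sets may lie outside them and then do not check the labels. WT replicate 4 stood apart in sex-linked transcripts, with Xist at 12.72, where the other arrays had 6.31 to 6.48, and Eif2s3y, from the Y chromosome, at 3.71, where they had 9.30 to 9.68. The control probe sets separated the groups too. On KO arrays the 3′ control of beta-actin stood 4.96 ± 0.37 (SD, n = 3) above its 5′ control, against 4.10 ± 0.22 (SD, n = 4) on WT arrays, and the groups did not overlap (exact two-sided permutation p = 0.0286, the lowest value possible with 35 splits of the arrays). For Gapdh, the 3′ control stood 4.01 ± 0.26 above the middle one on KO arrays, against 3.47 ± 0.16 on WT arrays, with the same exact permutation p = 0.0286. Since this measure and the genotype run together over the 7 arrays, their parts in any result below cannot be told apart.

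Of the 10 genes, Tsc22d3, Klf9, Nr3c1 and Angptl4 each had 1 probe set that fell in KO lungs, and 0 probe sets rose (3.53% of all probe sets passed as higher). The 4 that passed were 13.3% of the 30 probe sets, against 9.89% of all probe sets passing in either direction and 6.37% passing as lower. Every KO array was under every WT array at those 4 probe sets and at no other, and every KO array was over every WT array at 0 of the 30. Of all probe sets, 11.7% had the KO arrays entirely under the WT arrays and 11.7% entirely over them. Of the 30 changes, 19 were negative and 11 positive, with a median of -0.05, against a median of 0.04 over all probe sets. Taking the brightest probe set of each gene, 2 of 10 genes passed, Tsc22d3 and Angptl4, against 10.5% of the 18193 genes. These shares were near the background, so the number that passed is no result about the 10 genes, and what follows concerns the single genes and how they varied.

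**Figure D1:**
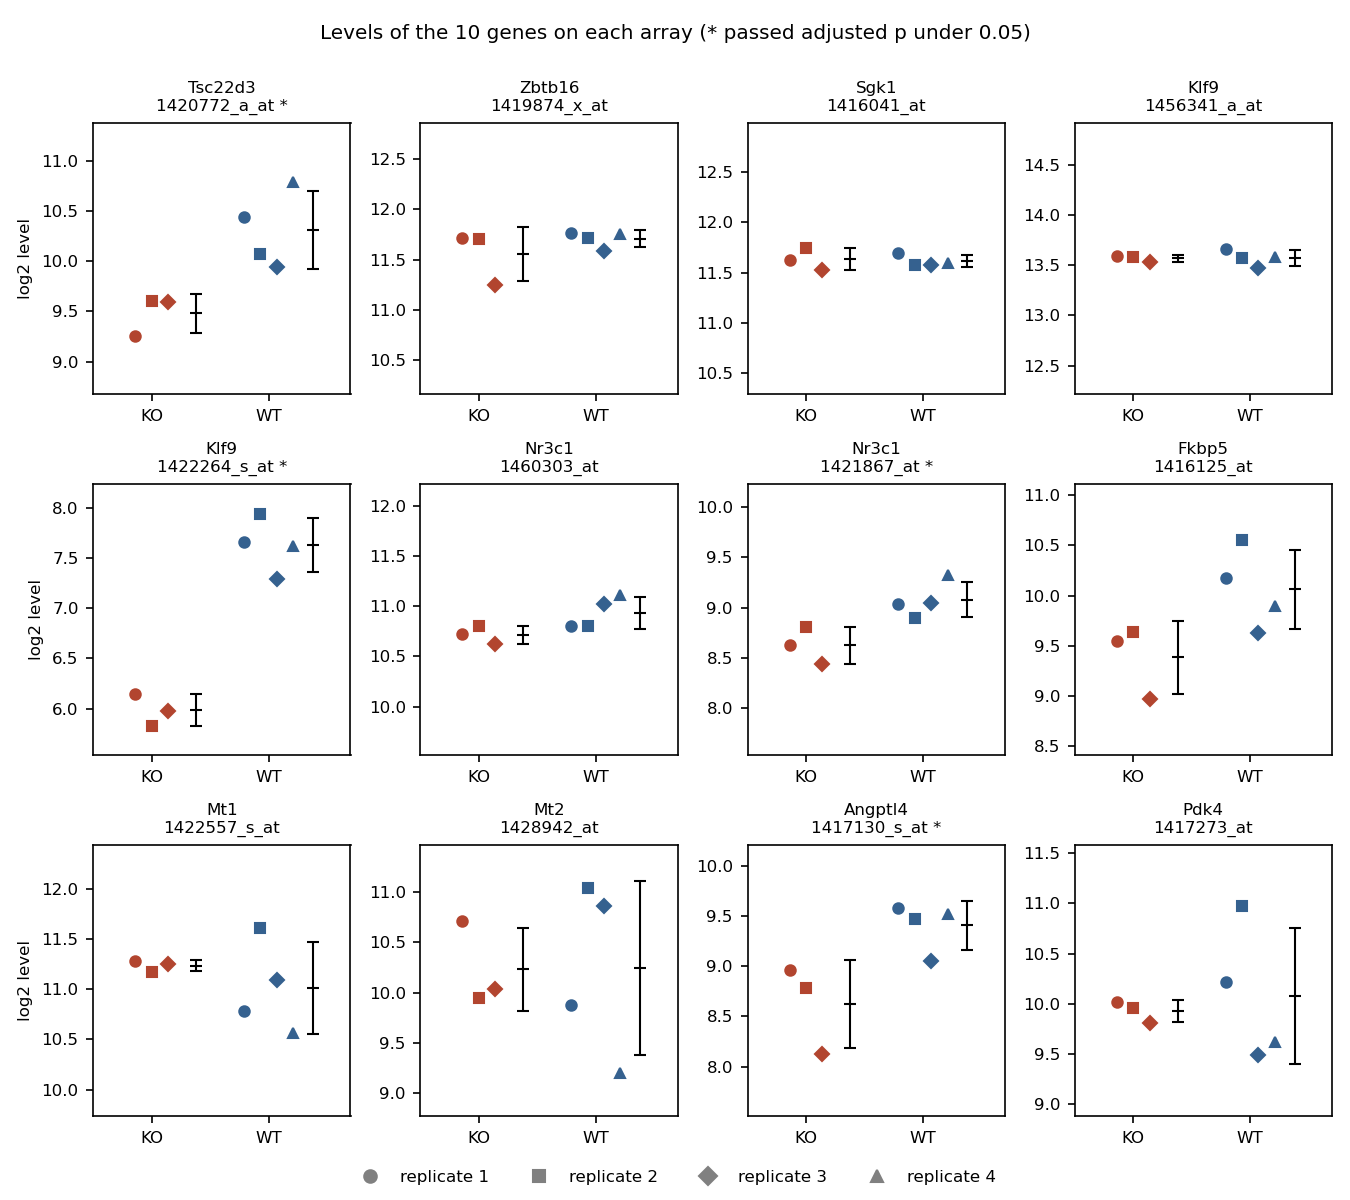
Log2 levels (vertical axes, each spanning the same number of log2 units) of 12 probe sets of the 10 genes on the 3 KO arrays (left in each panel) and the 4 WT arrays (right), with the replicate number as the symbol and the mean ± SD of each group as a bar. The probe sets marked with an asterisk, 1 each of Tsc22d3, Klf9, Nr3c1 and Angptl4, have all KO points below all WT points, whereas the Mt1, Mt2 and Pdk4 points of both groups overlap.

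Of the 30 probe sets, 22 had a mean level of at least 5.47, the level filter, which was set at the 40th percentile over the array. Among these, 4 passed (18.2%), all as lower and without overlap of the groups, against 14.8% of all probe sets above that level passing in either direction and 10.1% as lower. Groups did not overlap at 30.3% of all probe sets above that level, with KO under WT at 18.3%. Of the 22 changes 17 were negative. The 8 dim probe sets of Tsc22d3, Klf9, Nr3c1, Fkbp5 and Angptl4 had levels of 3.45 to 5.27 and changes of -0.04 to 0.08, and 0 of them passed (lowest adjusted p = 0.369 from limma). Across the array, the share of passing probe sets that were higher in KO depended on the scaling. It was 35.6% of 4456 as deposited, 46.5% of 4324 with quantile normalization, 24.1% of 4610 with median centring and 37.3% of 4182 with cyclic loess. The 4 members that passed stayed negative under each of these scalings.

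**Figure D2:**
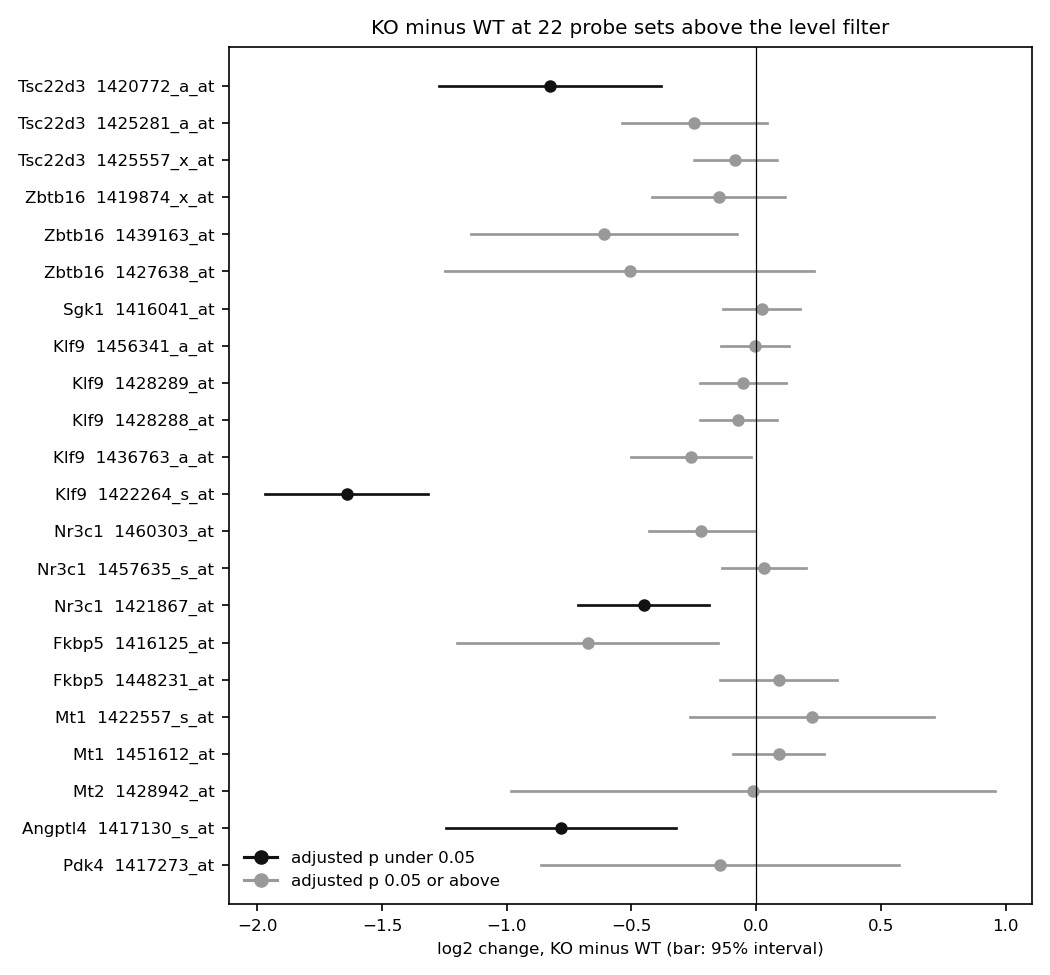
Log2 change, KO minus WT (horizontal axis), with its 95% interval from limma, at the 22 probe sets of the 10 genes above the level filter. Black marks the 4 probe sets with adjusted p under 0.05, of which the Klf9 probe set 1422264_s_at stands farthest from 0 at -1.64 while the other 4 Klf9 probe sets shown lie between -0.26 and 0.

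The receptor gene Nr3c1 fell slightly at 1 of its probe sets. At 1421867_at it stood at 8.63, 8.81 and 8.44 on KO arrays, against 9.04, 8.90, 9.05 and 9.32 on WT arrays. The highest KO array lay just under the lowest WT array. Its log2 change was -0.45 (SE 0.12, 95% interval -0.71 to -0.19), a 1.37-fold fall (adjusted p = 0.0448 from limma). It no longer passed when KO replicate 1 or 3 or WT replicate 1, 3 or 4 was left out. Over all arrays left out in turn its change ran from -0.54 to -0.36, with adjusted p of at most 0.133 from limma. It was also lost after quantile normalization, at adjusted p = 0.0585 from limma.

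The other probe sets of Nr3c1 did not pass. The brightest, 1460303_at, read 10.72, 10.80 and 10.62 on KO arrays, against 10.80, 10.80, 11.02 and 11.11 on WT arrays (log2 change -0.22, adjusted p = 0.157 from limma), and KO replicate 2 equalled 2 of the WT arrays. At 1457635_s_at the KO arrays read 10.48, 10.48 and 10.57, against 10.48, 10.36, 10.64 and 10.44 on WT arrays, a change of 0.03. The 3 remaining probe sets were dim and read between 4.07 and 4.75 on every array. The passing probe set was therefore set against its gene: the level at 1421867_at minus the mean of the 2 other probe sets above the level filter was -1.97, -1.83 and -2.15 on KO arrays and -1.60, -1.68, -1.78 and -1.45 on WT arrays. The mean of this difference in KO minus that in WT was -0.36 and the groups did not overlap. The probe set was singled out because it passed, so this difference, like those for Tsc22d3 and Klf9 below, is a description with no test. In bulk lung, fewer cells of a type that makes a transcript and less of the transcript per cell cannot be told apart, here or for any gene below.

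Fkbp5, a co-chaperone of Hsp90 that the receptor induces and that lowers its affinity for hormone, was lower on average but did not pass. At 1416125_at it read 9.55, 9.64 and 8.97 on KO arrays, against 10.17, 10.55, 9.63 and 9.90 on WT arrays. KO replicate 2 stood just above WT replicate 3, and this was the one crossing between the groups. The log2 change was -0.68 (SE 0.23, 95% interval -1.20 to -0.15, 1.60-fold), with adjusted p = 0.0980 from limma. Its dimmer probe set 1448231_at read 5.89 to 6.22 on KO arrays and 5.76 to 6.12 on WT arrays, a change of 0.09.

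Tsc22d3, also known as GILZ, a leucine-zipper protein that the receptor induces and that restrains inflammatory transcription, fell in KO lungs. Its brightest probe set 1420772_a_at read 9.26, 9.60 and 9.59 on KO arrays, against 10.44, 10.07, 9.94 and 10.79 on WT arrays. All KO arrays were lower than the lowest WT array, WT replicate 3. The group means were 9.48 ± 0.19 in KO (SD, n = 3) and 10.31 ± 0.38 in WT (SD, n = 4), a log2 change of -0.83 (SE 0.19, 95% interval -1.27 to -0.38) or a 1.77-fold fall (adjusted p = 0.0345 from limma). It no longer passed when any KO array or WT replicate 1 or 4 was left out (changes from -0.95 to -0.67 over all arrays left out in turn, adjusted p up to 0.0978 from limma). Tsc22d3 is X-linked, and WT replicate 4, the array with high Xist, had its highest level. Without that array the change was -0.67 (adjusted p = 0.0541 from limma).

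The other probe sets of Tsc22d3 did not pass. At 1425281_a_at the KO arrays read 7.92, 8.05 and 7.88, against 8.42, 8.10, 7.89 and 8.38 on WT arrays, a change of -0.25 with adjusted p = 0.228 from limma. At 1425557_x_at they read 6.38 to 6.54, against 6.47 to 6.70 on WT arrays, a change of -0.08. Relative to the mean of those 2 probe sets, 1420772_a_at stood at 2.11 to 2.38 on KO arrays and 2.75 to 3.31 on WT arrays, a difference of -0.66, KO minus WT, and the groups did not overlap. Tsc22d3 has several starts, and which of them a probe set reads was not analysed here.

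The starts of Tsc22d3 and of Sgk1 are shown because they hold letters of the element that the receptor binds, in a gene that fell and in one that did not pass. The RefSeq promoter table (GRCm38.p6, 250 bases before each start printed here, 300 bases searched) held 14 promoters for 7 of the 10 genes, and Zbtb16, Nr3c1 and Angptl4 were not matched. The motifs searched on both strands were the full element (AGAACA, any 3 bases, then TGTTCT), a looser core (GNACA, any 3 bases, then TGTNC), the 6-base site AGAACA, a metal response element core (TGCACNC or TGCGCNC), a forkhead site (TGTTTAC) and a PPAR element (AGGTCA, any base, AGGTCA). The full element contains the looser core and 2 6-base sites, so these matches overlap. Of 32851 promoters in the table, 0.00913% (3 promoters) held the full element, 0.475% the looser core, 19.0% the 6-base site, 25.7% the metal core, 3.65% the forkhead site and 0.0396% the PPAR element. Capitals mark matches to the 6-base site or, in Sgk1, also to the full element. The second Tsc22d3 start in the table (chrX:140600523-140600772, minus strand) held 1 6-base site at -185 to -180 from the start, and the fifth Sgk1 start (chr10:21993640-21993889, plus strand) held the full element at -189 to -175 and another 6-base site at -242 to -237. A match is a string of letters, not a measured binding site.
Tsc22d3 promoter 2: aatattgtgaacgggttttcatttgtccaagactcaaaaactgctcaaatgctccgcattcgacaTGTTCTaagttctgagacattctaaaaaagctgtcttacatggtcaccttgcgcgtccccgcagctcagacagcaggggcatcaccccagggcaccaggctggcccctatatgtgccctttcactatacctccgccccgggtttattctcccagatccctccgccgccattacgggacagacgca
Sgk1 promoter 5: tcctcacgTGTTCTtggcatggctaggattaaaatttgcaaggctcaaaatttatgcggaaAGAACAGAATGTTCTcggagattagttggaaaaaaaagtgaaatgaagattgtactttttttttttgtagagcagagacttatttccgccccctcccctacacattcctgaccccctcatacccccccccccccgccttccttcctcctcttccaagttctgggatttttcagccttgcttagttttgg

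Sgk1, a kinase that the receptor induces and that raises sodium channel activity in epithelia, did not pass, and the promoter printed above is 1 of the 3 in the table with the full element. Its single probe set 1416041_at read 11.63, 11.75 and 11.53 on KO arrays, against 11.70, 11.58, 11.58 and 11.60 on WT arrays. The groups overlapped and KO arrays held both the highest and the lowest value. The log2 change was 0.02, with a 95% interval of -0.13 to 0.18 (adjusted p = 0.845 from limma), so a fall as large as that of Tsc22d3 at 1420772_a_at lies outside the interval.

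Zbtb16, also known as PLZF, a zinc-finger repressor strongly induced by glucocorticoids in many cells, had negative changes at its 3 probe sets and passed at 0. At 1439163_at it read 11.08, 11.06 and 10.30 on KO arrays, against 11.81, 11.42, 10.97 and 11.50 on WT arrays (log2 change -0.61, 95% interval -1.15 to -0.08, adjusted p = 0.128 from limma). At 1427638_at it read 8.13, 8.13 and 6.87 on KO arrays, against 8.72, 8.09, 7.82 and 8.24 on WT arrays (log2 change -0.51, adjusted p = 0.318 from limma). At the brightest, 1419874_x_at, it read 11.72, 11.71 and 11.25 on KO arrays, against 11.77, 11.72, 11.59 and 11.76 on WT arrays (log2 change -0.15, adjusted p = 0.406 from limma). KO replicate 3 was the lowest of all 7 arrays at each. Without it the change was -0.355 at 1439163_at, -0.0875 at 1427638_at and 0.005 at 1419874_x_at.

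Klf9, a Krüppel-like repressor induced by glucocorticoids and by thyroid hormone, gave the largest change among the 30 probe sets, and at 1 probe set alone. At 1422264_s_at it read 6.15, 5.83 and 5.98 on KO arrays, against 7.66, 7.94, 7.29 and 7.62 on WT arrays. The gap between the highest KO and the lowest WT array was wider than the range within either group. The means were 5.99 ± 0.16 in KO (SD, n = 3) and 7.63 ± 0.27 in WT (SD, n = 4), a log2 change of -1.64 (SE 0.14, 95% interval -1.97 to -1.31) or a 3.12-fold fall (adjusted p = 0.00227 from limma). Ordered by change, this probe set was number 8 from the most lowered of 45037. It passed with any one array left out (changes from -1.75 to -1.54, adjusted p from 0.00609 to 0.0149 from limma). With the beta-actin difference as a covariate the change was -1.19 (adjusted p = 0.164 from limma), with the Gapdh difference -1.16 (adjusted p = 0.0995), and for the 5 lowest-numbered mice alone -1.81 (adjusted p = 0.0510). By the numbers in the sample titles, these 5 are all KO mice and WT replicates 1 and 2. WT replicates 3 and 4 had numbers above those of every KO mouse, and what the numbers stand for is not stated.

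The brighter Klf9 probe sets did not show this fall. At 1456341_a_at Klf9 read 13.59, 13.58 and 13.53 on KO arrays, against 13.66, 13.57, 13.47 and 13.58 on WT arrays, with a 95% interval of -0.14 to 0.13 for the log2 change. The probe sets 1428289_at and 1428288_at changed by -0.05 and -0.07 and did not pass. At 1436763_a_at the KO arrays read 9.42, 9.37 and 9.10, against 9.67, 9.47, 9.39 and 9.70 on WT arrays (log2 change -0.26, adjusted p = 0.144 from limma). The level at 1422264_s_at minus the mean of these 4 was -6.50 to -6.19 on KO arrays and -4.95 to -4.42 on WT arrays, a difference of -1.54, KO minus WT. The 3 brightest of these 4 averaged 13.57, 13.26 and 13.08 over all arrays, at the 99.9, 99.8 and 99.7 percentiles of all probe sets, where the highest value deposited was 14.61. Whether saturation limits a change at such levels was not tested. In Affymetrix naming, the suffix _s_at marks probes that can match more than a single transcript. Averaged over all 7 Klf9 probe sets the log2 change was -0.28 (adjusted p = 0.0306 from limma). That mean includes 1422264_s_at, the only one of the 7 that passed, so it is no separate evidence. The changes at the others lay between -0.26 and 0.07. The Klf9 promoter in the table held the forkhead site at -100 to -94 and no match to the glucocorticoid motifs in its 300 bases.

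The metallothioneins Mt1 and Mt2 are small cysteine-rich proteins that bind zinc and copper and are induced by metals, glucocorticoids and fasting. Both differed more between WT mice than between genotypes. Among KO mice this held for Mt2 but not for Mt1 at 1422557_s_at, with an SD of 0.06 in KO and 0.46 in WT. Mt1 at 1422557_s_at read 11.28, 11.17 and 11.25 on KO arrays, against 10.78, 11.61, 11.09 and 10.56 on WT arrays (log2 change 0.22, 95% interval -0.26 to 0.71, adjusted p = 0.498 from limma). Mt2 at 1428942_at read 10.71, 9.95 and 10.04 on KO arrays, against 9.88, 11.04, 10.86 and 9.20 on WT arrays (log2 change -0.01, 95% interval -0.98 to 0.96, adjusted p = 0.988 from limma). The highest and the lowest level of both genes were in WT lungs. At these probe sets both genes ordered the mice alike within each group. In KO, where Mt1 spanned only 0.11, the order from high to low was replicates 1, 3 and 2. In WT it was replicates 2, 3, 1 and 4. All 7 heart muscle markers measured also stood in that order in WT, with summed levels of 14.31, 14.01, 13.71 and 13.42 on replicates 2, 3, 1 and 4, and in the order 2, 3, 1 in KO, unlike the metallothioneins. Their part in the order of Mt1 and Mt2 was not tested. The dimmer Mt1 probe set 1451612_at read 6.11 to 6.29 on KO arrays and 5.99 to 6.24 on WT arrays, a change of 0.09. It kept the order of the WT mice but ran 1, 2, 3 in KO. The brighter Mt1 probe set carries the suffix _s_at, described above for Klf9. The interval for Mt2 covers a change of nearly 1 log2 unit either way, so these arrays bound its change only loosely.

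The promoters of Mt1 (chr8:94178839-94179088, plus strand) and Mt2 (chr8:94172368-94172617, plus strand) are shown because the pair varied together and carries the metal core, which zinc-sensing Mtf1 is known to bind. Capitals mark the core on either strand. Mt2 held it at -223 to -217, -128 to -122 and -50 to -44 in the printed stretch and again at 4 to 10, past the start. Mt1 held it at -23 to -17 in the printed stretch and again at 2 to 8 and 20 to 26. Positions are counted from the start in the promoter table. For Mt1 the gene record begins earlier, at 94178883, so most of its printed stretch lies inside that record. Mt1 also held the looser glucocorticoid core at -94 to -82, left in lower case here.
Mt1 promoter: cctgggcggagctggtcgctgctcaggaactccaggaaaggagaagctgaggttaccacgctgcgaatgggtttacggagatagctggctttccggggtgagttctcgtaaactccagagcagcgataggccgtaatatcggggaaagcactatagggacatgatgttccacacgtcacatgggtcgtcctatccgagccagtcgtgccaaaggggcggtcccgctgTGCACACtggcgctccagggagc
Mt2 promoter: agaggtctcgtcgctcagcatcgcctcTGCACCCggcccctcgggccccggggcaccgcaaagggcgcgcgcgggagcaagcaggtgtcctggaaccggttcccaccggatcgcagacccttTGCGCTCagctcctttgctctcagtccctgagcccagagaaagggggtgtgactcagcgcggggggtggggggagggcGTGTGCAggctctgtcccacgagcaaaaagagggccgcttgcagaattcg

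Of the fasting genes, Angptl4 fell and Pdk4 did not pass. Angptl4, a secreted inhibitor of lipoprotein lipase induced by PPAR factors, glucocorticoids and fasting, read 8.96, 8.78 and 8.13 at 1417130_s_at on KO arrays, against 9.58, 9.47, 9.05 and 9.52 on WT arrays. KO replicate 1 lay just under WT replicate 3, and the groups did not overlap. The means were 8.62 ± 0.44 in KO (SD, n = 3) and 9.40 ± 0.24 in WT (SD, n = 4), a log2 change of -0.78 (SE 0.20, 95% interval -1.24 to -0.32) or a 1.72-fold fall (adjusted p = 0.0459 from limma). It no longer passed when KO replicate 2 or 3 or WT replicate 1, 2 or 4 was left out (changes from -0.95 to -0.53 over all arrays left out in turn, adjusted p up to 0.115 from limma). Quantile normalization and cyclic loess also ended the call (adjusted p = 0.0586 and 0.0547 from limma). This probe set carries the suffix _s_at, described above for Klf9. The other Angptl4 probe set, 1453410_at, lay under the level filter and changed by -0.006 (adjusted p = 0.968 from limma). Fat tissue also makes Angptl4. Of 5 adipocyte markers 0 passed and Cidec and Lep lay under the level filter, with a summed level of 9.83 to 10.6 on KO arrays and 9.92 to 11.0 on WT arrays.

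Pdk4, the kinase that shuts off pyruvate dehydrogenase on fasting, read 10.02, 9.96 and 9.81 at 1417273_at on KO arrays, against 10.22, 10.97, 9.49 and 9.62 on WT arrays. The KO levels lay inside the WT range, which was set by WT replicate 2 at the top. The log2 change was -0.15 with a 95% interval of -0.86 to 0.57 (adjusted p = 0.774 from limma), and without WT replicate 2 it was 0.15. Heart muscle, which in the mouse extends along the lung veins, also makes Pdk4. Of 7 heart muscle markers 0 passed and all were above the level filter, with a summed level of 13.6 to 14.1 on KO arrays and 13.4 to 14.3 on WT arrays. WT replicate 2, the array highest for Pdk4, was also the highest WT array for all 7, with Myh6 at 12.60, where the other WT arrays had 11.86 to 12.35, and Nppa at 9.61, where they had 7.76 to 9.20. It was the highest WT array for the adipocyte markers Adipoq, at 7.78 against 6.05 to 6.58 on the other WT arrays, and Fabp4, at 10.64 against 9.42 to 9.71. The other arrays did not run in the heart marker order. WT replicate 3, the lowest for Pdk4, had a summed heart marker level of 14.01, against 13.71 and 13.42 on WT replicates 1 and 4. In KO, replicate 1 was highest for Pdk4 with the lowest summed heart marker level, 13.62, while replicate 2 had the highest, 14.14. The part of either tissue in the spread of Pdk4 was not tested.

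Of the 10 genes, 7 had a probe set among the most variable between mice of one genotype. The within-genotype SD, pooled over both groups, was above 0.27, the 95th percentile of probe sets above the level filter, at 8 of the 22 probe sets. These 8 belonged to Mt2, Zbtb16, Pdk4, Fkbp5, Mt1, Angptl4 and Tsc22d3. The largest were 0.72 for Mt2, 0.55 for Zbtb16 at 1427638_at and 0.53 for Pdk4. For Pdk4 and for Mt1 at 1422557_s_at the spread lay in WT, with SDs of 0.68 and 0.46, against 0.11 and 0.06 in KO. The median over the 22 was 0.18, against 0.11 over all probe sets above that level. Klf9, Sgk1 and Nr3c1 had no probe set above the 95th percentile. Sgk1 had an SD of 0.08, the 3 probe sets of Nr3c1 0.10 to 0.18 and the 3 brightest of Klf9 0.06 to 0.10.

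**Figure D3:**
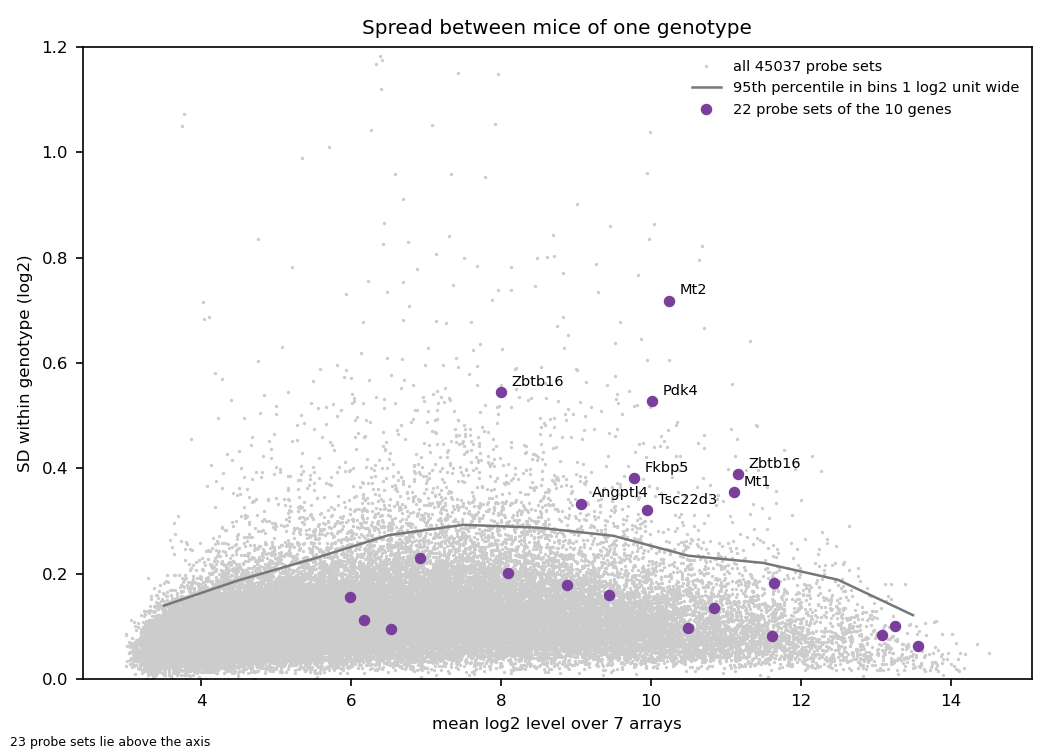
SD of the log2 level between mice of one genotype (vertical axis) against the mean log2 level over the 7 arrays (horizontal axis), for all 45037 probe sets (grey) and the 22 probe sets of the 10 genes (purple), with the grey line at the 95th percentile in bins of level. The 8 labelled probe sets, with Mt2 at 0.72 the highest, lie above the line, and 23 probe sets lie above the top of the axis.

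In each group 1 mouse was low for most of the 10 genes. At the brightest probe set of each gene, KO replicate 3 was the lowest KO array for Zbtb16, Sgk1, Klf9, Nr3c1, Fkbp5, Angptl4 and Pdk4 and the highest for 0. WT replicate 3 was the lowest WT array for Tsc22d3, Zbtb16, Sgk1, where it tied with replicate 2, Klf9, Fkbp5, Angptl4 and Pdk4, and also the highest for 0. Over the 22 probe sets above the level filter, each of these arrays was the lowest of its group at 15 (68.2%), against 38.9% of all such probe sets for KO replicate 3 and 27.5% for WT replicate 3. The order was chosen after the values were seen and was not tested.

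**Figure D4:**
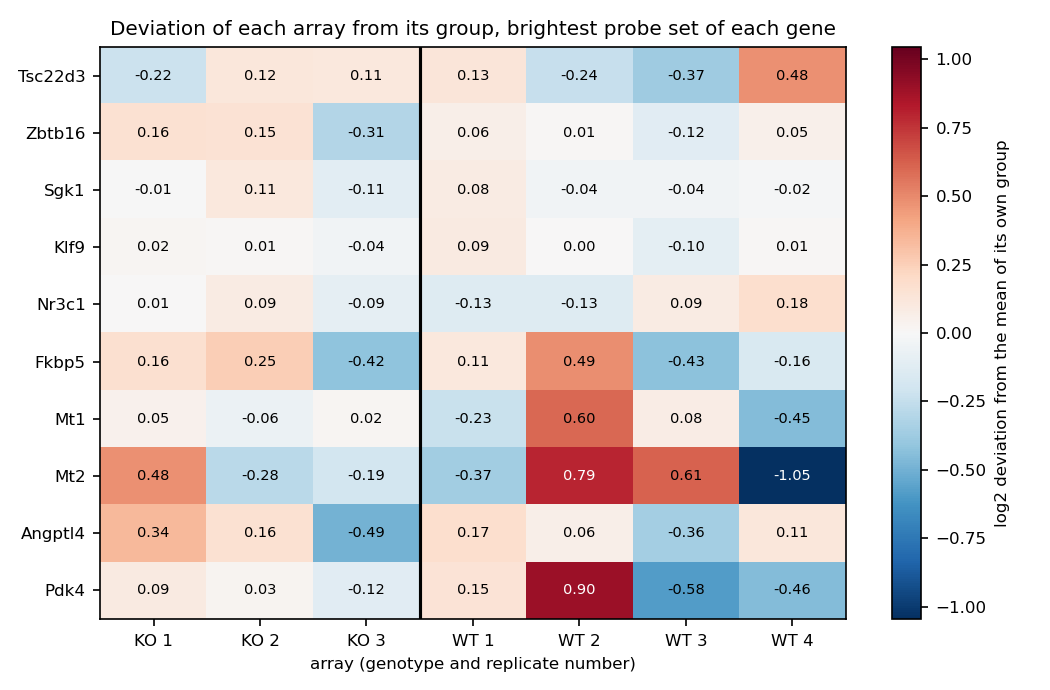
Deviation of each array (columns, 3 KO arrays then 4 WT arrays) from the mean of its own group in log2 units (colour and printed value), at the brightest probe set of each of the 10 genes (rows). KO replicate 3 and WT replicate 3 are below their group mean in most rows, WT replicate 2 is high for Pdk4, Mt2, Mt1 and Fkbp5, and WT replicate 4 is low for Mt2.

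The genes whose levels ran most like the passing probe sets were found by the root mean square difference over the 7 arrays, each gene centred on its own mean, among 18192 other genes at their brightest probe set. Nearest to Nr3c1 at 1421867_at were Cct5 at 0.027 log2 units, Mcm6 at 0.043 and Naca at 0.045. Nearest to Tsc22d3 were B4galt4 at 0.16, Tcf21 at 0.16 and Nck1 at 0.19. Nearest to Klf9 at 1422264_s_at were Apoe at 0.19, Gnb2 at 0.23 and Bsg at 0.24, and nearest to Angptl4 were Rin2 at 0.14, Slc49a4 at 0.16 and Senp6 at 0.17. None of the other 9 genes of the set was among these neighbours. With only 3 of 18192 genes kept for each, that absence says nothing about the set.

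The other genes of the pathways were taken at their brightest probe set, where 10.5% of the 18193 genes passed, 6.52% as lower and 4.0% as higher, with a median change of 0.04. Of 15 measured genes for receptor chaperones, hormone-converting enzymes and coregulators, 5 fell, 0 rose and 10 did not pass (33.3% passed, median change -0.22). Stip1, which hands clients from Hsp70 to Hsp90, read 5.83, 5.53 and 6.14 on KO arrays, against 7.31, 7.38, 7.47 and 7.20 on WT arrays (2.84-fold fall, adjusted p = 0.00229 from limma). Fkbp4, the co-chaperone that takes the place of Fkbp5 on the receptor when hormone binds, read 7.80 to 7.82 on KO arrays and 8.26 to 8.66 on WT arrays (log2 change -0.64, adjusted p = 0.00722 from limma). The chaperones Hspa8 and Hsp90aa1 changed by -0.38 each, and Hsp90aa1 no longer passed when KO replicate 1 or 3 or WT replicate 3 was left out (adjusted p at most 0.0601 from limma). Nrip1, a corepressor named after its values were seen, changed by -0.40 and passed with KO replicate 1 left out but with no other array left out (adjusted p up to 0.114 from limma). Hsd11b1, which regenerates active hormone in tissue, did not pass, with a change of -0.25. The count of 5 was 3 with KO replicate 3 or WT replicate 3 left out.

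Of 31 other genes known to be induced by glucocorticoids, 4 fell, 0 rose and 27 did not pass (12.9% passed, median change -0.20). Pik3r1, the regulatory subunit of phosphoinositide 3-kinase, read 9.50, 9.30 and 9.28 on KO arrays, against 10.03, 9.96, 9.88 and 10.04 on WT arrays (1.53-fold fall, adjusted p = 0.00486 from limma). Rhob, a small GTPase, fell 1.41-fold (adjusted p = 0.00910 from limma), and Slc10a6, a transporter of sulfated steroids, also 1.41-fold, its call lost without KO replicate 3 (adjusted p = 0.0558). Gadd45a, a growth-arrest protein, changed by -0.35 and passed with KO replicate 2 left out but with no other array left out (adjusted p up to 0.0995 from limma). The count of 4 was 8 with median centring.

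Of 34 other genes of fasting, PPAR and FOXO factors, 4 fell, 1 rose and 29 did not pass (14.7% passed, median change 0.06). Pdk1, a sister kinase of Pdk4 that responds to hypoxia, rose 1.63-fold: it read 9.52, 9.61 and 9.67 on KO arrays, against 8.93, 8.78, 8.86 and 9.01 on WT arrays (adjusted p = 0.00330 from limma). Plin2, which coats lipid droplets, read 11.00 to 11.14 on KO arrays and 11.35 to 11.44 on WT arrays (log2 change -0.32, adjusted p = 0.0153 from limma). Hadha and Acadvl, enzymes of mitochondrial fatty acid oxidation, changed by -0.30 and -0.27. Hadha passed with KO replicate 1 left out alone and Acadvl with no array left out (adjusted p up to 0.0887 and 0.0807 from limma). Txnip, a thioredoxin-binding protein named after its values were seen, read 11.38, 10.48 and 10.85 on KO arrays, against 11.89, 11.76, 11.39 and 11.77 on WT arrays (log2 change -0.80, adjusted p = 0.0424 from limma), a call that held with KO replicate 1 left out alone (adjusted p up to 0.121). The count of 5 was 2 with quantile normalization, cyclic loess or array weights, 2 with KO replicate 3 or any 1 WT array left out and 3 with KO replicate 2 left out. Of 9 metal-responsive genes, among them the zinc sensor Mtf1 with a change of 0.07, 0 passed (median change -0.03, 0 of 9 against 10.5% of all genes). With either control difference as a covariate, or for the 5 lowest-numbered mice alone, 0 of these 14 passing genes and 0 of the 4 passing probe sets described above passed, and the change of Txnip was -0.16 with beta-actin and -0.05 with Gapdh.

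**Figure D5:**
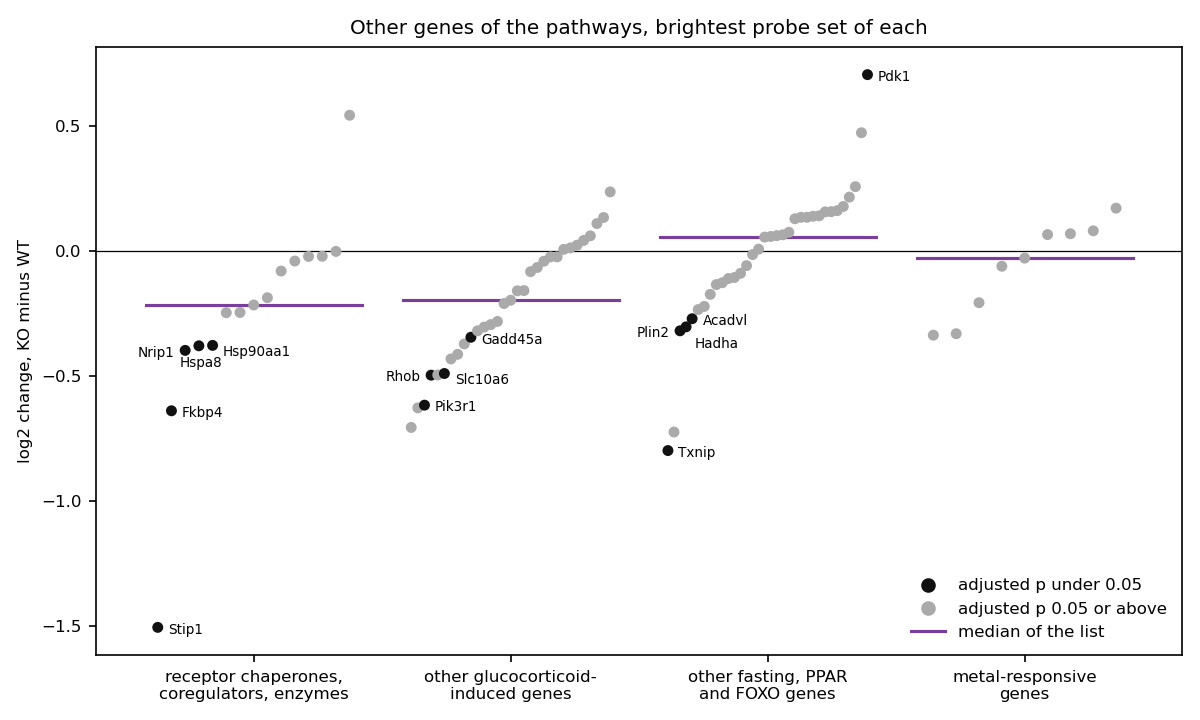
Log2 change, KO minus WT (vertical axis), of each gene of the pathway lists at its brightest probe set, ordered within each list, with the median of the list as a line. The 14 genes with adjusted p under 0.05 are black and named, 13 of them below 0 and Pdk1 above.

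The labelled tissue carried its defining markers: all 9 markers of lung epithelium and endothelium were above the level filter. The brightest were Scgb1a1 and Sftpc, at mean levels of 14.54 and 14.03 on KO arrays and 14.49 and 14.15 on WT arrays. Of the 9, 1 fell, Pecam1 (11.1%, against 10.5% of all genes at their brightest probe set). Of the 9 changes 8 were negative. Every KO array was under every WT array at 3, Pecam1, Sftpb and Sftpc, as at 18.3% of all probe sets above the level filter. Sftpb changed by -0.74 and did not pass (adjusted p = 0.0869 from limma). Cdh5, also a marker of endothelium, changed by -0.15 and did not pass (adjusted p = 0.241 from limma). The summed level of the 9 markers was 16.36 to 16.39 on KO arrays and 16.41 to 16.50 on WT arrays, without overlap. Among 7 markers of T, NK and B cells 0 passed, with a summed level of 9.72 to 10.7 on KO arrays and 9.67 to 10.4 on WT arrays. Among 6 skeletal muscle markers and 4 liver markers 0 passed, and 5 and 2 of these lay under the level filter. The part of these cell types in the results was not tested.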

How the data were processed

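The authors deposited log2 levels of 45101 probe sets, 64 of them controls, for 7 arrays. Per the submitters' processing notes, the tools were Affymetrix Expression Console, RMA and MAS5, with no version, and their roles are not stated. The range of the values, 2.91 to 14.61, set the log base. Groups came from the labels. A single gene was annotated for 34945 probe sets, several for 932 and none for 9160, and 34741 names were brought up to date by gene identifier with RefSeq names (GRCm38.p6).

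Genotype was the one term in a fit of all 45037 other probe sets (lmFit, eBayes, limma 3.58.1, R 4.3.3) with Benjamini-Hochberg adjustment, and the fit was tested on simulated data. An exact two-sided permutation test over 35 splits compared the control differences per array. Precision is limited by the number of arrays, and p-values measure the spread between these mice.

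The 10 genes, the lists and the tests were chosen with earlier results of these data known. Named were all 10 genes, up to 4 passing genes of smallest p per pathway list, the brightest tissue markers and the 3 nearest profiles of each passing gene. A summed level is the log2 of a list's summed linear levels. Alternatives concerned scaling, filter, probe set choice, eBayes with a trend, weights per array, the replicate block, control covariates and single arrays left out. For the comparison within a gene, leaving out arrays was added after seeing the data. Python 3.11.15 with matplotlib 3.10.9 drew the figures.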

Additional observations from a re-analysis of the deposited data

Results flagged for a closer look

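The WT levels of the 30 probe sets of the 10 genes, 15 named pathway genes and 2 probe sets of Gata5, and the 2 control differences, were screened, 49 groups of 4 in all, and the other pathway genes were not. In 4 cases 1 WT array stood far from the other 3, by Dixon's criterion at 95%, which flags about 1 in 20 groups by chance. Sgk1 at 1416041_at had its highest WT level, 11.70, on replicate 1, with 11.58 to 11.60 on the others. Hspa8 at 1455789_x_at had 13.72 on replicate 3, with 13.52 to 13.55 on the others. Both others were dim probe sets of Nr3c1: 1431378_at had its lowest WT level, 4.53, on replicate 4, and 1453860_s_at its lowest, 4.12, on replicate 3.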

How the results depend on the processing

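The falls at the 4 passing probe sets of Tsc22d3, Klf9, Nr3c1 and Angptl4 kept their sign under every alternative that gave them a value, and their calls depended on the arrays used. The number of the 30 probe sets that passed, 4 as deposited, was 2 with quantile normalization, 1 with array weights, 0 with either control covariate, 0 for the 5 lowest-numbered mice and 1 to 3 with an array left out. With 1 value per gene the number tested was 10, and the passing probe sets of Klf9 and Nr3c1 had no value of their own. Of these 10, 2 passed with 1 probe set per gene and the level filter, and 1, Klf9, with the mean of a gene's probe sets. The Klf9 mean includes its passing probe set. Of all 45037 probe sets, 4456 passed, 2069 of 13285 with 1 probe set per gene and the level filter, 1748 of 18193 with gene means, 13 with the Gapdh covariate (7714 at unadjusted p under 0.05 in limma), 0 with the beta-actin covariate (7989), 0 for the 5 lowest-numbered mice (8007) and 1974 to 4251 with an array left out. Of the genes of the 4 pathway lists, 14 passed, 0 with either covariate or for those 5 mice, and 8 to 15 with an array left out. By list, the 5 receptor genes were 4 to 6 with other processing and 3 to 7 with an array left out, the 4 glucocorticoid targets 4 to 8 and 3 to 5, the 5 fasting genes 2 to 5 and 2 to 5, and the 0 metal genes 0 to 1 and 0. The covariate fits hold genotype and a measure that separates the genotypes. The fit on 5 mice has fewer arrays and leaves out WT replicates 3 and 4. The cause of the other shifts was not tested.

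Over all probe sets, same-numbered KO and WT arrays had correlations of deviations from their group means of 0.04, -0.11 and 0.05. With so few arrays these values cannot settle whether the replicate numbers pair the mice. Among the 10 genes, replicate 3 was the lowest of both groups for Zbtb16, Sgk1, Klf9, Fkbp5, Angptl4 and Pdk4, as described above. Its part in the fit with a block was not tested. With the replicate number as a block, 1322 probe sets passed, 4 of the 30 and 6 of the list genes (4 receptor genes, 1 glucocorticoid target, 1 fasting gene and 0 metal genes). These 4 were Klf9 at 1422264_s_at (adjusted p = 0.0216 from limma), Angptl4 (0.0263), Fkbp5 at 1416125_at (0.0274) and Zbtb16 at 1439163_at (0.0436).

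Changes near 0 took the other sign in places, none of them passing. Sgk1 was at -0.01 with median centring, -0.0033 for the 5 mice, -0.17 with the beta-actin and -0.064 with the Gapdh covariate, and -0.035 to 0.075 with an array left out. Klf9 at 1456341_a_at was at 0.0099 with quantile normalization, 0.059 with loess, 0.0059 with weights, 0.069 with the Gapdh covariate and -0.037 to 0.027 with an array left out, and at 1428289_at 0.011 with loess, 0.0073 with the Gapdh covariate and -0.10 to 0.005. Nr3c1 at 1457635_s_at was at -0.0017 with median centring, -0.056 and -0.059 with the covariates and -0.01 to 0.083 with an array left out. Mt2 was at 0.080 with quantile normalization, 0.055 with loess, 0.017 with weights, 0.33 and 0.23 with the covariates and -0.36 to 0.25 with an array left out. Pdk4 was at 0.22 and 0.52 with the covariates and -0.34 to 0.15 with an array left out. Fkbp5 at 1448231_at was at -0.0017 for the 5 mice, Zbtb16 at 1419874_x_at at -0.23 to 0.005 with an array left out, and Gata5 at 1450125_at at 0.00098 and 0.0070 with the covariates.

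With 6 or 5 arrays the exact permutation test of the control differences cannot go under 0.05. They were then 0.65 to 0.97 for beta-actin and 0.40 to 0.63 for Gapdh with an array left out, and 0.87 and 0.67 for the 5 mice. The differences within genes, given with no test, were -1.61 to -1.43 for Klf9, -0.72 to -0.53 for Tsc22d3 and -0.43 to -0.27 for Nr3c1.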

Other observations

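Nr3c2, the mineralocorticoid receptor, which also binds corticosterone, was the one gene of the receptor list with a positive change and was picked out after its values were seen. At 1435991_at it read 6.52, 7.09 and 7.27 on KO arrays, against 6.42, 6.51, 6.30 and 6.44 on WT arrays, so that the groups did not overlap but KO replicate 1 lay just above WT replicate 2. The log2 change was 0.54 (95% interval 0.18 to 0.90) and did not pass over all probe sets (adjusted p = 0.0649 from limma). It passed over the probe sets above the level filter alone (adjusted p = 0.0480) and without KO replicate 1, where the change was 0.76 (adjusted p = 0.00826 from limma). With each array left out in turn, the change lay between 0.39 and 0.76.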
